A study of Mus musculus with 12 samples.

Results

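Transcripts of long intergenic non-coding RNAs (lincRNAs) that carry a numbered Gm name, the provisional symbol given to mouse gene models with no functional name, were examined in the hippocampus and cerebral cortex of 7-month-old mice on the C57BL/6J background. A transcript was included when GENCODE M21 typed it as lincRNA, its gene name was Gm followed only by digits, and it lay on neither sex chromosome. This gave 3945 of the 48033 transcripts in the count table, from 3109 gene identifiers. The groups were WT hippocampus, 5 × FAD hippocampus, WT cortex and 5 × FAD cortex, with 3 libraries each, 12 in all. The 5 × FAD mice carry human amyloid precursor protein and presenilin transgenes with mutations of familial Alzheimer's disease, which the Thy1 promoter drives in neurons, and the WT mice were non-transgenic mice of the same age. Each mouse gave both regions, and the tissue was frozen whole, so fewer cells of a type and less RNA per cell cannot be told apart.

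The libraries held 3517967 to 5014389 counts. Each genotype was described as 2 females and 1 male. The 4 libraries of 5 × FAD hippocampus and cortex numbered 1 and 2 held 30468 to 46630 counts of Xist, the RNA of the inactive X chromosome, and no Y-linked count, while the other 8, all WT libraries among them, held at most 25 counts of Xist and at least 1074 Y-linked counts. The library sexes therefore went against the description for WT, and sex is partly aligned with genotype but not with region. Markers of each region were checked on the summed listed transcripts of the marker genes, nearly all of a non-coding type. Of 17 hippocampal markers, 8 were in the table, 5 were tested and 3 were higher in the hippocampus. Among the 3 was Zbtb20, a transcription factor of hippocampal pyramidal neurons (log2 fold change 1.63). Lhx2 and Meis2, also tested, leaned to the cortex without passing the test (log2 fold changes -0.44 and -0.62). Of 18 cortical markers, 10 were in the table, 9 were tested and 5 were higher in the cortex. Among the 5 was Rorb, a transcription factor of cortical layers (log2 fold change -1.14). Without passing the test, Cux2, Tbr1 and Tcerg1l leaned to the cortex and Nr4a2 to the hippocampus (log2 fold change 0.97). Of 9 striatal markers, 6 were in the table and tested, and 3 (Drd1, Rgs9 and Ppp1r1b) were higher in the cortex libraries. Their summed level was 60.0 to 254 CPM (counts per 1000000 scaled library counts) in the hippocampus and 233 to 532 CPM in the cortex. The summed hippocampal list overlapped between the regions, at 216 to 600 CPM in the hippocampus and 219 to 420 in the cortex. The summed cortical list did not overlap, at 231 to 379 CPM in the hippocampus and 405 to 643 in the cortex. Of 7 choroid plexus markers 2 were in the table. Folr1 was at 0 in every library, and Kl, a gene of choroid plexus epithelium, was higher in the hippocampus (log2 fold change 2.69, adjusted p = 0.0118), at 6.72 to 47.0 CPM against 1.63 to 10.8. The part of these markers in the region differences below was not tested.

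LincRNAs are transcribed by RNA polymerase II, and are usually capped, spliced and polyadenylated, but hold no long open reading frame. Those of the brain are known for low abundance, for expression limited to few regions or cell types, and for lying beside genes of neural development, with which some share a bidirectional promoter. A few have known roles in chromatin regulation or as precursors of microRNAs, while most Gm-named genes have no known function.

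Sequences are shown for the members on which the region difference turned. RefSeq gives promoters (250 bases before to 50 after the gene start, GRCm38.p6) for 1112 of the 3106 gene names and for 18 of the 30 members that differed between the regions. The first set shows 6 of these promoters, from the 3 called members in each direction with the largest fold change whose RefSeq gene start lay at or near the transcript start. Gm11681 (chr11:112798959-112799258, minus strand), Gm14963 (chr19:6276529-6276828, minus strand) and Gm20754 (chr3:73066101-73066400, plus strand) were higher in the hippocampus. Gm20752 (chr3:159076114-159076413, plus strand), Gm12371 (chr4:36952716-36953015, plus strand) and Gm9899 (chr5:30588570-30588869, minus strand) were higher in the cortex. Capitals mark matches on either strand to any of 6 motifs, which are general promoter elements and the sites of neuronal basic helix-loop-helix factors. The TATA box was searched as TATAAA. The CCAAT box is spelled by its own name, read on either strand. For the GC box, the binding motif of Sp factors, the letters searched were GGGCGG. The cAMP response element was searched under its full palindromic form (TGACGTCA). Of the E-boxes bound by helix-loop-helix factors, the first form searched was CAGCTG. The other form, which neurogenic factors of this class are known to bind, was CAGATG.
Gm11681: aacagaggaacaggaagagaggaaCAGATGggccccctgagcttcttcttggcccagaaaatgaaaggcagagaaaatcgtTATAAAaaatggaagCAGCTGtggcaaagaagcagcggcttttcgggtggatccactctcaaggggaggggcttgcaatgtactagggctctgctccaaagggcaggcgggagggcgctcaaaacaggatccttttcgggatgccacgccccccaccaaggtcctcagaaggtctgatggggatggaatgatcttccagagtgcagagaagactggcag
Gm14963: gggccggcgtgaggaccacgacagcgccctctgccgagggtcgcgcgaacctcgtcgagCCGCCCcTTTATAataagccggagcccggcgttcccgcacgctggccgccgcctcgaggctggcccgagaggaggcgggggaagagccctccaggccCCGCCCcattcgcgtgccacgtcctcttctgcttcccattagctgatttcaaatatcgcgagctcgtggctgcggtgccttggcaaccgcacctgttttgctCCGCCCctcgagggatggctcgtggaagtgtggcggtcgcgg
Gm20754: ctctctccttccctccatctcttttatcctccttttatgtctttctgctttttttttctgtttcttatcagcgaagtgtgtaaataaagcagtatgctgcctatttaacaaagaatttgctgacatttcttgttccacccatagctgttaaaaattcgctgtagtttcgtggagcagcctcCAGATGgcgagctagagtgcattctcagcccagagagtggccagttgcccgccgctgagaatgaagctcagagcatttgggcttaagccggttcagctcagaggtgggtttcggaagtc
Gm20752: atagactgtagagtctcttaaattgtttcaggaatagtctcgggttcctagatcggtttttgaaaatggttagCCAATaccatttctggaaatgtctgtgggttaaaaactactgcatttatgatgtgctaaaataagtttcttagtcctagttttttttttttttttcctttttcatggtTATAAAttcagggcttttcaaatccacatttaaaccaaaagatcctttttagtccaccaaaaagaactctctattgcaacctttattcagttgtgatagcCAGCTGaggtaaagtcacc
Gm12371: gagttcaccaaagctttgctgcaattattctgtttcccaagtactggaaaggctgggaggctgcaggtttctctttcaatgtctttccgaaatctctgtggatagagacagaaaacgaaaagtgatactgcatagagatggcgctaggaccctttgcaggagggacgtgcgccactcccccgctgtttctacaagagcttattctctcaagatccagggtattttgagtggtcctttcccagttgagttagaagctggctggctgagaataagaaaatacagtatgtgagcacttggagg
Gm9899: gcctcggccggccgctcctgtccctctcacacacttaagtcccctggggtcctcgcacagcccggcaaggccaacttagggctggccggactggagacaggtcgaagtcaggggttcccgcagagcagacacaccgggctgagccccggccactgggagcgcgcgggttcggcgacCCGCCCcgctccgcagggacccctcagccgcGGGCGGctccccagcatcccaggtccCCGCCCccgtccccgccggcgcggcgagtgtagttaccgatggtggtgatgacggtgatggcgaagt

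Gm11681 held 1 TATA box 169 bases before its start and 1 match to each E-box, Gm14963 held 3 GC boxes and 1 TATA box, and Gm20754 held 1 E-box. Among the cortical promoters, Gm20752 held 1 TATA box 69 bases before its start, 1 CCAAT box and 1 E-box CAGCTG, Gm9899 held 3 GC boxes, and Gm12371 held none of the 6 motifs. Over all 1461 promoters of Gm lincRNA genes, a GC box was present in 12.7%, against 35.7% of all 32851 RefSeq promoters, and in 22.0% of the promoters of tested members. A TATA box was present in 18.3%, against 13.6% of all promoters, the E-box CAGATG in 23.8% against 17.2%, the E-box CAGCTG in 16.5% against 16.3%, a CCAAT box in 37.1% against 37.4% and a cAMP response element in 1.44% against 1.79%. The median GC content was 47.3% against 52.7%. A match is a description of the letters in these windows and not a binding site.

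The second set shows the first 200 bases of the 3 members with the largest excess in the hippocampus or nearly no cortical counts, as GENCODE M21 gives the spliced transcript. Gm35037 lies at chr7:3451357-3475020 (plus strand, 4 exons), Gm47728 at chr13:43683120-43701064 (plus strand, 7 exons) and Gm26644 at chr19:44692357-44695275 (minus strand, 2 exons), all on GRCm38. Capitals mark the 8 bases on each side of the first exon junction, a stretch that is contiguous only in the spliced RNA.
Gm35037: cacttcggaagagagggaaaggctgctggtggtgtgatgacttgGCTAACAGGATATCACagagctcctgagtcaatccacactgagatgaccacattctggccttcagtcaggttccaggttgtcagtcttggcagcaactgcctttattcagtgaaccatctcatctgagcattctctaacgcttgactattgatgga
Gm47728: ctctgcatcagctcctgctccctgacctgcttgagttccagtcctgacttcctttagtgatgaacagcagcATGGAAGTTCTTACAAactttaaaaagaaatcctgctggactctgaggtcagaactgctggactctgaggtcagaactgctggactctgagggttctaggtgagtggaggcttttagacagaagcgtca
Gm26644: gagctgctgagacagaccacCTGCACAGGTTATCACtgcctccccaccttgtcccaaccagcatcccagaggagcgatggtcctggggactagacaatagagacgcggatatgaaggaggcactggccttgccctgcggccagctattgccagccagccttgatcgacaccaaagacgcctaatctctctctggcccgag

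Most members were scarcely detected. Of the 3945 transcripts, 1750 (44.4%) had 0 counts in all 12 libraries, 2195 had at least 1 count, 397 (10.1%) had at least 3 counts in every library, and 215 had at least 10 in every library. At least 3 counts in every library was reached by 13.2% of lincRNA transcripts with RIKEN names, 32.1% of lincRNA transcripts with other names and 44.2% of all transcripts in the table. The level of those with at least 10 counts in every library was closer, with a median of 9.82 CPM per kb of transcript against 10.8 for RIKEN-named, 17.3 for other lincRNAs and 11.5 for all transcripts. The members had a median length of 778 bases and 3 exons, against 752 bases and 3 exons for all transcripts. The median distance to the nearest protein-coding gene was 37437 bp, and 208 members started within 2000 bp of the start of a protein-coding gene on the opposite strand, an arrangement called divergent here.

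The number of members detected was compared across the groups. At least 3 counts in every library of a group was reached by 610 members in WT hippocampus, 520 in 5 × FAD hippocampus, 594 in WT cortex and 595 in 5 × FAD cortex. After thinning of every library to 3517967 counts, these became 542, 485, 561 and 557. In single thinned libraries, 774, 736 and 783 members had at least 3 counts in WT hippocampus, 741, 750 and 751 in 5 × FAD hippocampus, 822, 798 and 765 in WT cortex, and 805, 821 and 803 in 5 × FAD cortex. The hippocampal libraries of both genotypes overlapped each other, and the cortical libraries lay higher except that the third WT cortex library fell within the hippocampal range. All 6 hippocampal libraries held at least 3 counts for 467 members and all 6 cortical libraries for 491, of which 70 and 94 did not reach this in every library of the other region. Over all transcripts these were 1828 of 23061 (hippocampus) and 1921 of 23154 (cortex). Among RIKEN-named lincRNAs they were 50 of 288 in each region, and among lincRNAs with other names 15 of 162 and 18 of 165. Region-limited detection was thus not particular to the members.

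Abundance was concentrated in few genes. Gm26917 held 49.1% of all member counts over the 12 libraries, Gm7292 6.28%, Gm42418 3.92%, Gm45159 2.93% and Gm3764 2.33%. Gm26917 (chr17:39843013-39846341) and Gm42418 (chr17:39846958-39848788) lie next to each other at a ribosomal RNA locus, where RefSeq names Gm42418 as the 18S ribosomal RNA related sequence Rn18s-rs5. Their shares of library counts moved together over the 12 libraries (Pearson's r = 0.962, Spearman's rho = 0.979, given as a description). The transcripts of Gm7292 (chr6:117716342-117718868) shared 91.5% and 86.6% of their 31-base words with other genes, 2900097C17Rik holding the most of them, and Gm42418 shared 96.3%, CT010467.1 holding the most, so the assignment of reads to them is uncertain. Gm3764 holds the microRNA gene Mir9-1, whose product regulates neurogenesis, and Gm45159 overlaps Dlg2, a postsynaptic scaffold gene, on the same strand.

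Per kb of transcript, the levels ran from Gm26917 downward. Its main transcript stood at 3284 ± 923 CPM per kb (SD, n = 12), followed by Gm7292 at 937 ± 216 and Gm42418 at 477 ± 146. Next came the second Gm7292 transcript at 189 ± 89.3, Gm3764 at 178 ± 26.8 and Gm48623 at 176 ± 24.7, which do not differ beyond their spread. Gm9916 at 128 ± 16.1 and another Gm3764 transcript at 120 ± 25.9 were also within each other's spread. Gm45159, whose transcript is 25241 bases long, stood at 25.9 ± 3.41, and the median of the 538 members tested was 3.36 CPM per kb.

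The members together took 1.66 to 2.92% of the counts of a library. This share was 2.21 ± 0.42% in the hippocampus and 2.22 ± 0.36% in the cortex (SD, n = 6 each), a difference of -0.00651 percentage points (two-sided exact permutation test, p = 0.976). Without Gm26917, Gm42418 and Gm7292, left out after the data had been seen, the share was 0.849 ± 0.0323% in the hippocampus, where it ranged from 0.809 to 0.886%, and 0.952 ± 0.033% in the cortex, where it ranged from 0.924 to 1.02%. The regions did not overlap (difference -0.102 percentage points, two-sided exact permutation test, p = 0.00216, the smallest that 924 splits allow). Those splits treat both regions of a mouse as separate samples. The direction was the same within each genotype, at 0.876% against 0.964% in WT and 0.823% against 0.939% in 5 × FAD (exact permutation p = 0.1 each, the smallest that 3 against 3 allows). For RIKEN-named lincRNAs the share was 1.85% in the hippocampus and 1.98% in the cortex (exact permutation p = 0.0541). For lincRNAs with other names it was 10.4% and 10.3% (exact permutation p = 0.857).

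**Figure D1:**
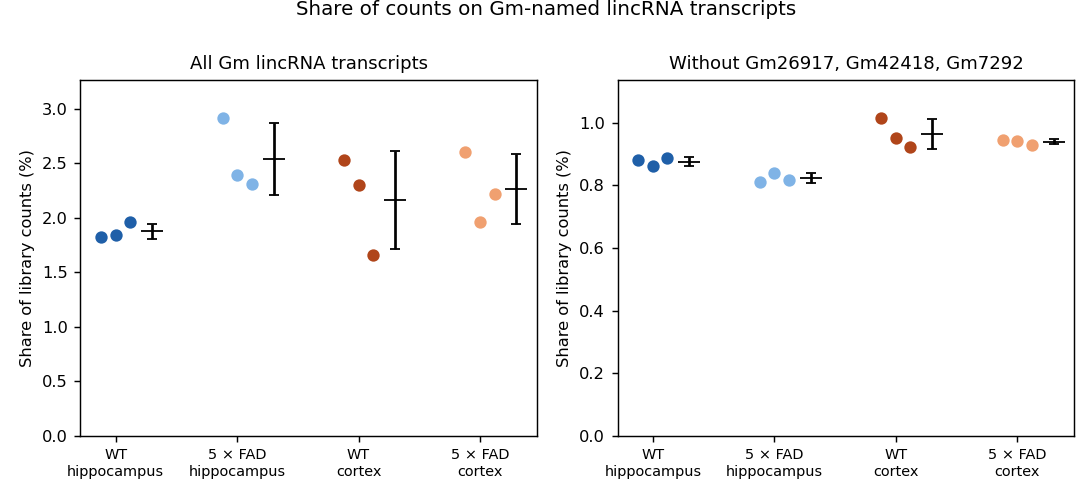
Share of library counts (%) on Gm-named lincRNA transcripts in each of the 12 libraries, by group, for all 3945 transcripts (left) and without Gm26917, Gm42418 and Gm7292 (right). Points are libraries and bars are the mean ± SD of 3 libraries. On the left the regions overlap, and on the right every cortical library (0.924 to 1.02%) lies above every hippocampal library (0.809 to 0.886%).

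Whether members differed between hippocampus and cortex was asked over all 12 libraries. After the filter on low counts 538 members from 453 gene names were tested, and 30 (5.58%) were called, meaning an adjusted p under 0.05 in edgeR's quasi-likelihood test over all transcripts. The background over all 24632 transcripts tested was 2.55% called. By direction, 15 were higher in the hippocampus (background 1.40%) and 15 in the cortex (background 1.15%), and each was from a different gene. The absolute log2 fold change of the called members was 0.77 to 5.70, with a median of 1.88. The median over all tested members was -0.17, below that of all transcripts (-0.00064), and 346 of the 538 had the sign of the cortex, against 12333 of 24632 transcripts. Among RIKEN-named lincRNAs 12 of 355 tested were called (3.38%), and among lincRNAs with other names 4 of 194 (2.06%). These 2 sets also leaned to the cortex, with medians of -0.099 (RIKEN-named) and -0.085 (other names). The sign of the cortex was held by 202 of 355 and 116 of 194. Separation of the regions without overlap occurred in 32 members (5.95%, background 3.00%), 16 in each direction, and in 23 of the 30 called. Leaving out 1 library at a time, 20 called members kept the call each time, 13 higher in the hippocampus and 7 in the cortex. With the 4 Xist-positive libraries left out, 5 of 678 were called (background 0.425%), 3 of them among the 30.

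**Figure D2:**
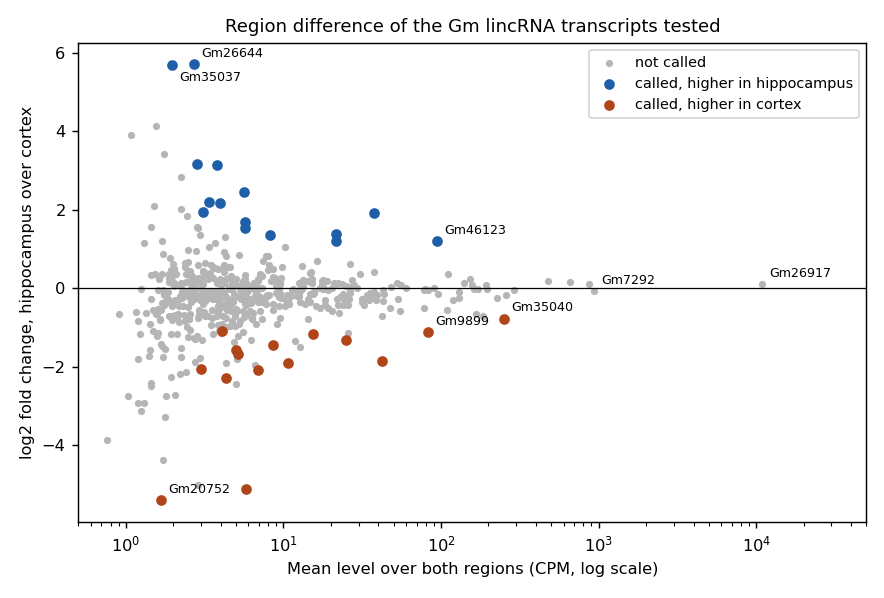
Log2 fold change of hippocampus over cortex (12 libraries) against the mean level of each of the 538 tested Gm lincRNA transcripts (CPM, log scale). Blue points are the 15 called higher in the hippocampus, brown points the 15 called higher in the cortex and grey points those not called. Gm26917, with the highest level, lies near 0.

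Few members were nearly limited to the hippocampus. At least 10 counts in every hippocampal library with at most 3 in every cortical library occurred for 2 members, Gm35037 and Gm47728, and for 4 transcripts in the whole table (0.00998% of the 40082 with a count). The reverse occurred for 0 members and 0 transcripts (0.00%). Gm35037, whose nearest protein-coding gene is Tarm1, a receptor of myeloid cells, had 16, 22 and 16 counts in WT hippocampus and 13, 13 and 20 in 5 × FAD hippocampus. In the cortex it had 0 in 5 libraries and 2 in the third 5 × FAD library. Every hippocampal library was thus above every cortical one. The summed rate was 47.6 times higher in the hippocampus (95% exact binomial interval 12.8 to 399, covering counting error only; edgeR adjusted p = 0.00367).

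Gm47728 had 28, 33 and 27 counts in WT hippocampus, 13, 12 and 22 in 5 × FAD hippocampus, and 1 to 3 in every cortical library. The regions did not overlap, and the log2 fold change was 3.16 ± 0.35 (SE, edgeR adjusted p = 0.00119). It lies 12175 bp downstream of Rnf182, which encodes a ubiquitin ligase. A second called member, Gm20751, lies 45846 bp downstream of Rnf182, with 35 to 69 counts in the hippocampus and 10 to 28 in the cortex (log2 fold change 1.37 ± 0.20). Gm26644 had 26, 30 and 24 counts in WT hippocampus and 10, 18 and 30 in 5 × FAD hippocampus, and in the cortex 4 in the second WT library and 0 in the other 5. Its nearest coding gene, 60770 bp away, is Pax2, a transcription factor of the developing midbrain and hindbrain. The summed rate of Gm26644 was 32.9 times higher in the hippocampus (95% exact binomial interval 12.6 to 122; edgeR adjusted p = 0.00737).

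Further members higher in the hippocampus are given with their nearest protein-coding gene. Gm11681, 4971 bp from Sox9, the transcription factor of neural stem cells and astrocytes, had 45, 49 and 27 counts in WT hippocampus, 46, 62 and 17 in 5 × FAD hippocampus, and 4 to 11 in the cortex. Its log2 fold change was 2.46 ± 0.33 (edgeR adjusted p = 0.00286) without overlap of the regions. Gm20754, 8548 bp from Slitrk3, which encodes an adhesion protein of inhibitory synapses, had 162 to 308 counts in the hippocampus and 37 to 103 in the cortex (log2 fold change 1.93 ± 0.28). These are the counts of 1 of its 2 listed transcripts, and the sum of both gave a smaller log2 fold change (1.46 ± 0.17). Gm38353 overlaps Gm20754 on the same strand and was also called (1.54 ± 0.23), so their reads may be shared. Gm44257 is divergent from Cacng8, which encodes an auxiliary subunit of AMPA receptors, 603 bp away. It had 83 to 159 counts in the hippocampus and 38 to 76 in the cortex (log2 fold change 1.21 ± 0.19, edgeR adjusted p = 0.00741).

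Gm46123 had the most counts of the members higher in the hippocampus. It had 585, 708 and 705 counts in WT hippocampus, 370, 475 and 596 in 5 × FAD hippocampus, 248, 276 and 196 in WT cortex, and 242, 226 and 215 in 5 × FAD cortex. The regions did not overlap, and the log2 fold change was 1.21 ± 0.14 (edgeR adjusted p = 0.00142). Gm2762, near Sptlc1, an enzyme of sphingolipid synthesis, had 71 to 178 counts in the hippocampus and 36 to 66 in the cortex (log2 fold change 1.38 ± 0.16). Gm36447, 12169 bp from the cohesin regulator gene Pds5b, had 17 to 42 counts against 0 to 6 (log2 fold change 3.14 ± 0.41). The remaining hippocampal members were Gm14963 (2.16 ± 0.41), Gm6999 (2.19 ± 0.39), Gm29483 (1.94 ± 0.35) and Gm44724 (1.70 ± 0.31). The call of Gm14963 was lost in 5 of the 12 fits without 1 library and that of Gm44724 in 3.

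Of the members higher in the cortex, Gm20752 was the one nearest to absence from the hippocampus. It had 8, 8 and 9 counts in WT cortex, 27, 18 and 10 in 5 × FAD cortex, and in the hippocampus 2 in the first WT library and 0 in the other 5. The summed rate was 42.0 times higher in the cortex (95% exact binomial interval 11.2 to 353, edgeR adjusted p = 0.00806). Gm10635 was called with 126, 21 and 37 counts in WT cortex, 31, 55 and 0 in 5 × FAD cortex and 0 to 4 in the hippocampus. The regions overlapped through the third 5 × FAD cortex library, and its call was lost in 10 of the 12 fits without 1 library.

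**Figure D3:**
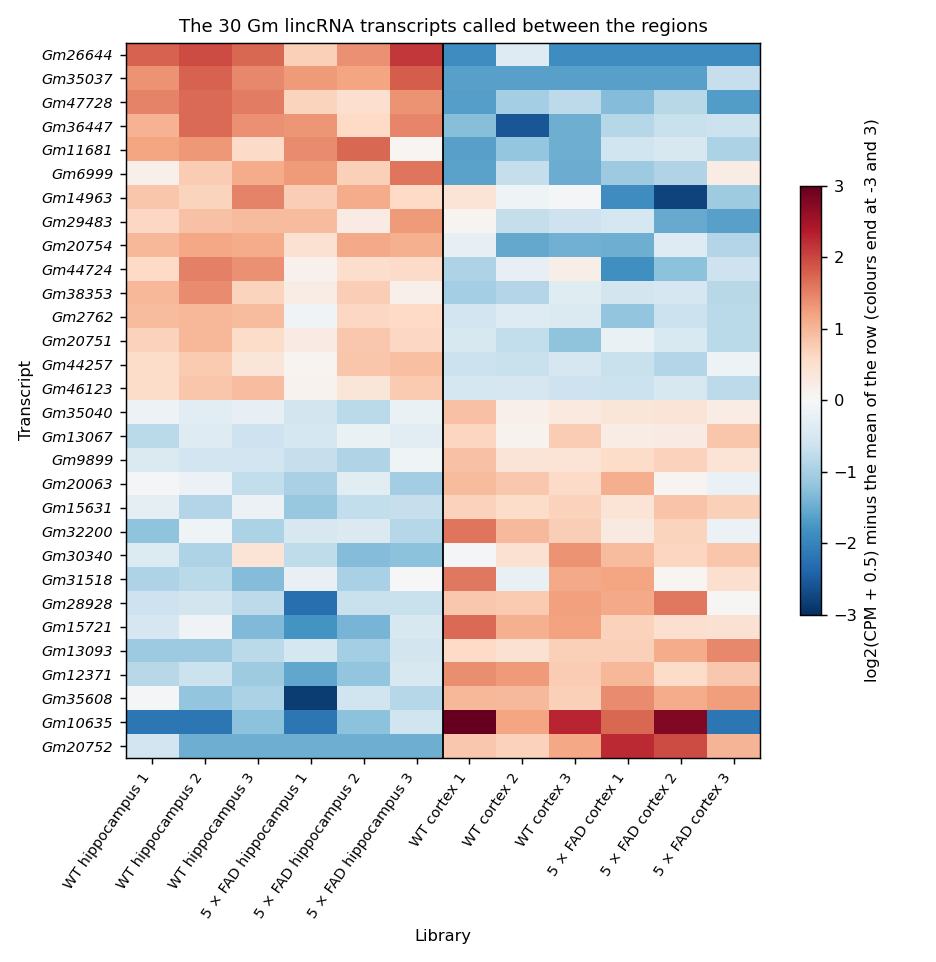
Heat map of the 30 called Gm lincRNA transcripts (rows) over the 12 libraries (columns), as log2(CPM + 0.5) minus the mean of the row, with colours ending at -3 and 3. The line divides hippocampus from cortex. The 15 rows at the top are higher in the hippocampus and the 15 at the bottom in the cortex, and Gm10635 is low in the third 5 × FAD cortex library.

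Divergent members were called in both directions. Of 64 divergent members tested 7 were called (10.9%), 5 higher in the cortex and 2 in the hippocampus, against 23 of 474 others (4.85%), a difference that was not tested. Gm15631, which starts 79 bp from Cntn4, the gene of a neuronal contactin, had 84, 56 and 87 counts in WT hippocampus and 40, 57 and 56 in 5 × FAD hippocampus. It had 153, 151 and 128 in WT cortex and 133, 151 and 161 in 5 × FAD cortex. No hippocampal library reached the cortical range (log2 fold change -1.31 ± 0.16, edgeR adjusted p = 0.00211), and the summed non-coding transcripts of Cntn4 were also higher in the cortex (-1.39 ± 0.22, adjusted p = 0.00304).

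Gm12371 is divergent from Lingo2, which encodes a neuronal leucine-rich repeat protein. It had 13, 15 and 10 counts in WT hippocampus, 6, 9 and 15 in 5 × FAD hippocampus and 30 to 63 in the cortex, with no overlap (log2 fold change -2.09 ± 0.24, edgeR adjusted p = 0.00141). Gm13093, 20 bp from the fructose transporter gene Slc2a5, had 4 to 6 counts in the hippocampus and 15 to 32 in the cortex (-2.05 ± 0.24). Gm15721, 154 bp from Mtus2, the gene of a microtubule-associated protein, had 8 to 35 against 43 to 115 (-1.90 ± 0.29). Gm20063, divergent from Lrfn5, a synaptic adhesion gene, was also called (-1.16 ± 0.26), but its regions overlapped and 10 of the 12 fits without 1 library lost the call. The summed non-coding transcripts of Lingo2, Slc2a5, Mtus2 and Lrfn5 did not pass the test (log2 fold changes -0.27, -0.50, -0.25 and 0.29).

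Over all 42 tested divergent members whose neighbour could be tested, 31 (73.8%) had the sign of the neighbour's summed non-coding transcripts, and over all 277 tested members with a tested neighbour 158 (57.0%) did. The neighbour itself was called for 1 of the 42 and for 13 of the 277. Nearly all listed transcripts of these genes are of a non-coding type, so the messenger RNAs were not compared.

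**Figure D4:**
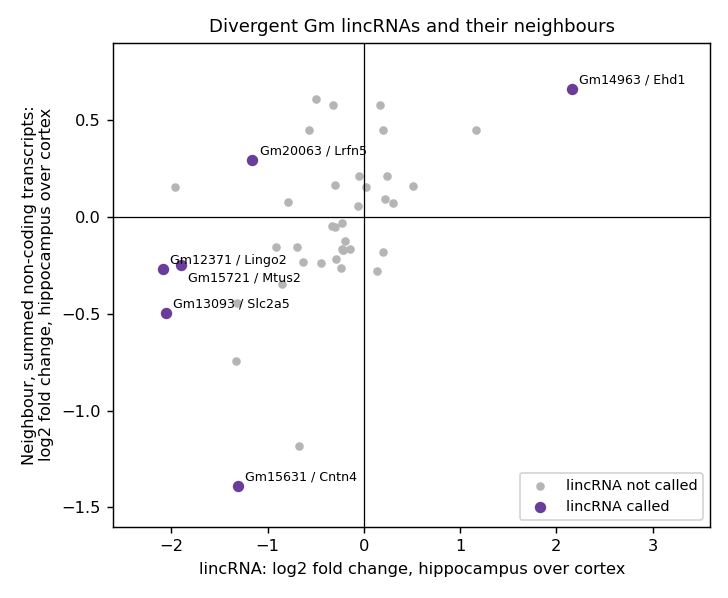
Log2 fold change of hippocampus over cortex for 42 divergent Gm lincRNA transcripts (x axis) and for the summed non-coding transcripts of the neighbouring protein-coding gene (y axis). Purple points, labelled with both names, are the 6 called lincRNAs with a tested neighbour. Gm15631 and Cntn4 lie at the lower left at -1.31 and -1.39.

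Of the cortical calls that are not divergent, Gm28928 lies 460198 bp from Dpp10, an auxiliary subunit gene of potassium channels. It had 98, 103 and 82 counts in WT hippocampus, 26, 87 and 83 in 5 × FAD hippocampus, 239, 259 and 273 in WT cortex, and 321, 364 and 145 in 5 × FAD cortex. The regions did not overlap (log2 fold change -1.87 ± 0.32, edgeR adjusted p = 0.0128), and the summed non-coding transcripts of Dpp10 were higher in the cortex as well (-1.39, adjusted p = 0.00698). Gm9899, which overlaps Kcnk3, a background potassium channel gene, on the opposite strand, had 174 to 281 counts in the hippocampus and 356 to 592 in the cortex (-1.12 ± 0.16, adjusted p = 0.00467). Gm35040 had the smallest absolute log2 fold change of the called members, with 580 to 1001 in the hippocampus and 1032 to 1833 counts in the cortex (-0.77 ± 0.16), and lost its call in 9 of the 12 fits without 1 library. The other cortical calls were Gm35608 (-2.29 ± 0.47), Gm31518 (-1.68 ± 0.37), Gm30340 (-1.57 ± 0.33), Gm32200 (-1.44 ± 0.27) and Gm13067 (-1.08 ± 0.22), each lost in 3 to 10 of those fits. Gm26803, the tested member whose nearest protein-coding gene is in the region marker lists (Mef2c, a neuronal transcription factor), had 8 to 22 counts in the hippocampus and 12 to 43 in the cortex and was not called (-0.34 ± 0.34).

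When all listed transcripts of a gene were summed, 58 of 476 Gm lincRNA genes were called (12.2%, background 6.82%), of which 22 were higher in the hippocampus and 36 were higher in cortex. The genes of all 30 called transcripts were among them. Of the 28 further genes, 7 were higher in the hippocampus and 21 in the cortex. For 13 of the 28 only 1 transcript was listed, so summing left their counts as they were. Named after their values were seen, Gm11728 had 10 to 23 summed counts in the hippocampus and 0 to 2 in the cortex (log2 fold change 3.56 ± 0.52), and Gm16551 had 11 to 23 against 0 to 7 (4.48 ± 0.78). In the other direction, Gm32817 had 10 to 32 summed counts in the hippocampus and 28 to 49 in the cortex (-1.34 ± 0.20), and the libraries' scaled levels did not overlap.

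Structure and sequence accompanied the calls as follows. Of members with 1 exon 2 of 100 were called, and of those with more exons 28 of 438. None of 46 members that shared at least 50% of their 31-base words with other genes was called by edgeR between the regions, and 15 of the 198 that shared none were. In 4 bins of mean CPM, from low to high, 2 of 135, 9 of 134, 9 of 134 and 10 of 135 were called, so few calls came from the lowest bin.

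The region difference was next compared between the genotypes, whose region contrasts share no library. In WT alone 10 of 452 members were called (background 0.986%), and 7 of the 10 were also called over 12 libraries. Leaving out any 1 of the 6 WT libraries left 0 or 1 (background 0.0300 to 0.269%). In 5 × FAD alone edgeR called 0 of 425 (background 0.0182%), with 64 at an unadjusted p under 0.05 (background 9.38%) and 17 called by DESeq2 (background 1.66%). Of the 30 members called over 12 libraries, all 29 tested in WT and all 28 tested in 5 × FAD had the 12-library sign, which is a description since both genotypes entered the call. The 3 libraries of each region separated without overlap for 29.2% of the members tested in WT (background 20.6%) and 26.6% of those tested in 5 × FAD (background 17.0%). Among members, 46 separated in the same direction in both genotypes and 9 in opposite directions. Of the 30 called, 28 separated in both genotypes, again a description since the same libraries entered the call. No background over all transcripts is given for these counts.

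Over the 391 members tested in both genotypes, the WT and 5 × FAD log2 fold changes had Pearson's r of 0.603 and Spearman's rho of 0.391, against 0.230 and 0.204 over 20658 transcripts. These are correlations across transcripts, which share the libraries of each genotype and are not independent. Of 61 members that differed at least 2-fold in WT, 49 (80.3%) had the same sign in 5 × FAD, against 1338 of 1935 transcripts (69.1%). For the test of whether the region difference depended on genotype, edgeR called 0 of 538 members (background 0.00812%), with 47 at an unadjusted p under 0.05 (background 6.89%) and 2 called by DESeq2 (background 0.402%).

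**Figure D5:**
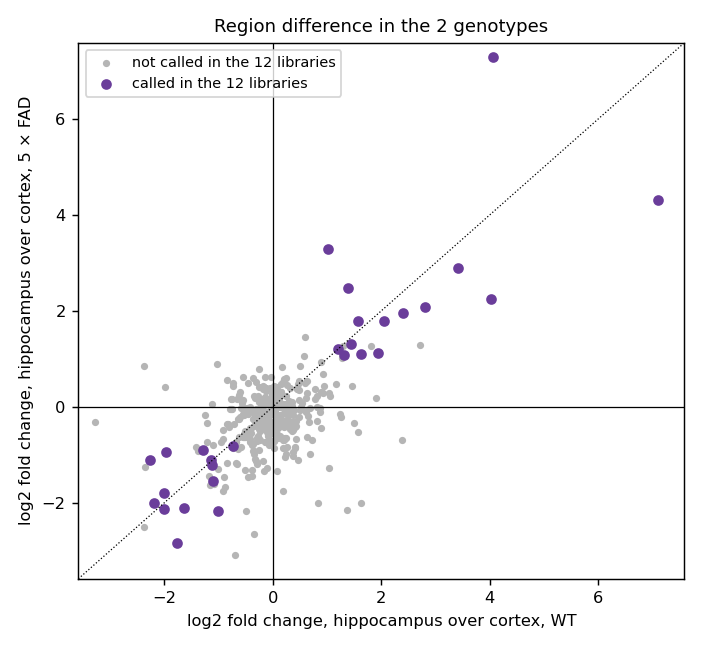
Log2 fold change of hippocampus over cortex in WT (x axis) and in 5 × FAD (y axis) for the 391 members tested in both, with the diagonal dotted. Purple points are members called over all 12 libraries. They lie at the lower left and upper right of the origin.

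Between the genotypes, no member passed edgeR's test. In the hippocampus edgeR called 0 of 424 (background 0.0183%), with 40 at an unadjusted p under 0.05 (background 7.58%) and 5 called by DESeq2 (background 0.580%). In the cortex edgeR called 0 of 445 (background 0.0545%), with 38 at an unadjusted p under 0.05 (background 5.34%) and 2 called by DESeq2 (background 0.464%). With the Xist-positive libraries left out, a single 5 × FAD library per region stood against 3 WT libraries. Its spread is unknown, so no count of calls is given for that setting. Without the third 5 × FAD library, edgeR called 1 of 481 in the hippocampus (background 0.167%) and 0 of 490 in the cortex (background 0.0346%). In that setting all 5 × FAD libraries were Xist-positive and all WT libraries held Y-linked counts, so sex and genotype cannot be told apart. In the hippocampus the median log2 fold change of 5 × FAD over WT was -0.17 against 0.021 for all transcripts, and in the cortex 0.0066 against 0.0024.

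The share of all members in the hippocampal libraries was 1.88 ± 0.0711% in WT and 2.54 ± 0.33% in 5 × FAD without overlap (two-sided exact permutation test, p = 0.1, the smallest that 3 against 3 allows). Without Gm26917, Gm42418 and Gm7292 the order was reversed, at 0.876 ± 0.0132% in WT and 0.823 ± 0.0159% in 5 × FAD, again without overlap (exact permutation p = 0.1). Gm26917 itself had 38435, 41850 and 39563 counts in WT hippocampus and 69497, 55674 and 48930 in 5 × FAD hippocampus. Its cortical counts were 52933, 51059 and 20859 (WT) and 61861, 30338 and 45405 (5 × FAD). Its hippocampal groups were apart while its cortical groups overlapped, and neither difference passed the test (log2 fold changes 0.70 ± 0.19 and 0.13 ± 0.32, edgeR adjusted p = 0.59 and 0.97).

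Markers of other cell types also set libraries apart, and their part in the genotype values was not tested. Of 12 microglial markers 4 were in the table and 2 were tested, with a summed level of 31.3 to 42.7 CPM in WT hippocampus, 47.5 to 206 in 5 × FAD hippocampus, 46.5 to 61.8 in WT cortex and 27.1 to 250 in 5 × FAD cortex. Trem2, a receptor of microglia, had 714, 809 and 164 counts in 5 × FAD hippocampus against 91 to 142 in WT, and 1046, 688 and 87 in 5 × FAD cortex against 129 to 248, so that the third 5 × FAD library stood closer to WT in both regions. Of 7 astrocyte markers 5 were in the table and 4 were tested, with a summed level of 1447 to 1563 CPM in WT hippocampus and 534 to 1200 in 5 × FAD hippocampus, and 972 to 1613 and 978 to 1552 in the cortex. Of 10 oligodendrocyte markers 5 were in the table and tested, with 352 to 444 CPM in WT and 508 to 590 in 5 × FAD hippocampus, and 299 to 478 and 546 to 620 in the cortex. No marker of these lists passed edgeR's test between the genotypes.

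The transcripts with the smallest unadjusted p whose groups did not overlap are given as values only. Genotype groups did not overlap for 21.2% of the members tested in the hippocampus and 18.4% in the cortex, so this alone is common here. No background over all transcripts is given for these shares. For 1 of the 3 listed transcripts of Gm13387, the WT hippocampus libraries held 12, 13 and 12 counts, and none of the 5 × FAD hippocampus libraries held any. With a floor of 3 counts over the 5 × FAD group, this transcript was 11.2-fold lower there (lower end of the 95% exact binomial interval 8.66, edgeR adjusted p = 0.30). The sum over the gene's transcripts was 24, 24 and 43 in WT and 0, 7 and 26 in 5 × FAD hippocampus, where the groups overlapped (log2 fold change -1.28). In cortex, WT libraries held 1, 2 and 0 counts of the transcript and 5 × FAD libraries 4, 1 and 4. Gm42743, which overlaps the histone gene Hist2h2bb on the same strand, had 9, 7 and 5 counts in WT hippocampus and 40, 32 and 78 in 5 × FAD hippocampus (log2 fold change 2.98 ± 0.48, edgeR adjusted p = 0.29). A transcript of Gm3764 had 61, 67 and 69 against 124, 149 and 134 (1.19 ± 0.20), while its gene sum gave -0.06. The others were transcripts of Gm10419 (1.02 ± 0.21, gene sum -0.52, the opposite direction), Gm36823 (-1.69 ± 0.35, gene sum -1.89) and Gm26871 (-1.73 ± 0.38, gene sum -0.44).

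For a Gm7292 transcript, the WT cortex libraries held 1168, 1402 and 1034 counts, against 2751, 1893 and 2593 for 5 × FAD cortex (log2 fold change 0.97 ± 0.14, edgeR adjusted p = 0.22). The groups did not overlap, most of its 31-base words are shared with other genes as given above, and the sum of both Gm7292 transcripts gave 0.47. In the hippocampus the same transcript was also higher in 5 × FAD without overlap (1.31 ± 0.29, edgeR adjusted p = 0.51, gene sum 0.97). Gm47469 had 16, 21 and 16 against 54, 44 and 87 (1.76 ± 0.30, adjusted p = 0.38), and Gm14246 had 4, 4 and 2 against 18, 11 and 13 (2.01 ± 0.39, adjusted p = 0.51). Lower in 5 × FAD, also without overlap, were Gm17322 (-1.25 ± 0.32), Gm10432 (-2.63 ± 0.69, gene sum -0.39) and Gm15721 (-0.82 ± 0.24), none of which passed the test. Gm17322 was lower without overlap in 5 × FAD hippocampus as well (-0.74 ± 0.31). Because the 5 × FAD libraries numbered 1 and 2 differ from all WT libraries in sex-linked counts, sex is partly aligned with genotype here, and its part in these values was not tested.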

How the data were processed

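Total RNA from 12 tissue samples was depleted of rRNA and sequenced as stranded paired-end libraries, per the labels. The authors deposited raw counts per transcript (48033 rows, 12 columns). The submitters' processing notes name Trimmomatic 0.36 and edgeR, and the aligner, counter and build of this table are not given in the sources used here. Rows were matched to GENCODE M21 by Ensembl transcript identifier. How reads shared by several transcripts were counted is also not given, so values of overlapping transcripts are uncertain.

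Counts were fitted with edgeR 4.0.16 in R 4.3.3 (filterByExpr, TMM scaling, glmQLFit and glmQLFTest) over all transcripts, with Benjamini-Hochberg adjustment over all tested and a threshold of 0.05. The region fit used 4 group means in 12 libraries, and the within-genotype and genotype fits used 6 libraries. Every mouse gave both regions, and the libraries were treated as separate samples. CPM values are per 1000000 TMM-scaled counts. Library shares were compared by exact permutation. The fit was tested on simulated counts first. Alternatives were DESeq2 1.42.0, other scalings, other filters, gene sums, a replicate block and leaving out each library. Intervals and floors cover counting error only. The p-values measure the spread between libraries, with 3 in each group. In the region comparisons both regions of a mouse counted as separate samples, so those p-values leave out the pairing.

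The named members were the 8 with the highest level per kb and any with over 2% of member counts, all called members, members of 1 region only, the 3 each way with the smallest unadjusted p and no overlap between genotypes, the member nearest a marker gene and those of the ribosomal locus. The members and lists were chosen with earlier results of these data known. Transcripts on chromosomes X and Y (1025 Gm lincRNA rows) were left out.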

Additional observations from a re-analysis of the deposited data

How the results depend on the processing

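Over the 12 libraries, the 30 members called between the regions became 56 with DESeq2 (10.4% of members and 5.59% of all transcripts), 16 of 215 tested with at least 10 counts in every library (7.44% and 5.23%), 58 with sums per gene (12.2% and 6.82%), 19 with a replicate block (3.53% and 1.08%) and 5 of 678 without the Xist-positive libraries (0.737% and 0.425%; 8 libraries, chosen after seeing the data). Without 1 library at a time there were 22 to 36 (background 1.45 to 3.24%). The other scalings gave 31 and 33 and kept all 30, no filter gave 27 (1.23% and 1.19%), and leaving out Gm26917 and Gm42418 gave 31. In WT, the 10 called (background 0.986%) became 29 with DESeq2 (background 3.38%) and 29 with sums per gene (background 3.50%). They became 0 without a filter (background 0.185%) and 0 with a replicate block (background 0.00%). Without 1 library there were 0 to 1 (background 0.0300 to 0.269%). The calls over all transcripts thus moved the same way in these fits. In 5 × FAD, 0 became 17 with DESeq2 (background 1.66%) and 7 in a fit of all 12 libraries (background 0.650%). Between genotypes, 0 became 5 in the hippocampus (background 0.580%) and 2 in the cortex (background 0.464%) with DESeq2. Without 1 hippocampal library there were 0 to 1, the 1 being without the third 5 × FAD library (background 0.167%). Without that library, sex and genotype cannot be told apart. For the dependence of region on genotype, 0 became 2 with DESeq2 (background 0.402%). The cause of these changes was not tested.

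The replicate block was added because equal replicate numbers may mark 1 mouse. Deviations of equal-numbered hippocampal and cortical libraries correlated at 0.0062 to 0.133 (median 0.0288), over 0.1 in 1 of 6 pairs. The 12 pairs with other numbers within a genotype ran lower, at -0.106 to 0.0582 (median -0.0195), with overlap. Of the libraries, 3 of 6 hippocampal and 4 of 6 cortical ones matched their own number best. The Xist-positive libraries carried the same numbers in both regions and held the most Trem2 counts of each region. Whether the numbers pair the libraries was not settled, so the block stayed an alternative. Of the 30 members, 17 were also called with the block.

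The difference in the share of counts between the regions (-0.0065 percentage points) became -0.0905 without the largest member, -0.0836 without the 10 largest and -0.102 without Gm26917, Gm42418 and Gm7292, each past 0.05, and -0.148 to 0.072 without 1 library. Members detected per group at 10 counts were 342 in WT hippocampus, 284 in 5 × FAD hippocampus, 321 in WT cortex and 334 in 5 × FAD cortex.

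None of the 611 alternative values of the 30 called members, about 20 settings for each, had the other sign. Among members not called between the regions, log2 fold changes near 0 turned. With 1 library left out they ran from -0.0296 to 0.212 for Gm26917, -0.0317 to 0.241 for Gm42418, -0.121 to 0.0339 for Gm48623 and -0.271 to 0.0373 for a Gm3764 transcript, the first 2 turning without the third WT cortex library. With sums per gene, Gm7292 gave 0.0240, Gm48623 0.0357 and the Gm3764 transcript 0.0917. Without the Xist-positive libraries, the other Gm7292 transcript gave -0.180, Gm48623 0.112, Gm9916 -0.0900, the Gm3764 transcript 0.0957 and Gm45159 -0.0451. For genotype in the hippocampus, sums per gene turned Gm3764 (-0.0590) and Gm10419 (-0.517). At this depth 3548 of 3945 members lacked 3 counts in some library, and a low level cannot be told apart from absence there.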
